A study of Mus musculus with 6 samples.

Results

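The genes described are 42 enzyme genes of central carbon metabolism, measured in resting natural killer cells (NKC) of the mouse spleen with and without the transcription factor Runx3. They comprised 14 genes of glycolysis, 2 of lactate dehydrogenase, 2 of fructose 2,6-bisphosphate control and 5 of the pyruvate dehydrogenase complex and its kinases. A further 6 were of the pentose phosphate pathway and 11 of the tricarboxylic acid (TCA) cycle and its NADP-linked isocitrate dehydrogenases. The last 2 were listed under anaplerosis, the refilling of the cycle. The members were all probe sets of the array whose single annotated gene symbol equalled 1 of the 42 names. A probe set is a group of short oligonucleotides that reads 1 or more transcripts, and its value is a background-corrected log2 signal. Probe sets carrying a single member symbol numbered 90 and covered 39 of the 42 genes, out of 18193 genes with such a probe set on the array. Gpi1, Eno1 and G6pdx had none and were not analysed here. A gene was represented by its brightest probe set and was tested where that set reached log2 5 on at least 1 array. That left 38 members among 9545 tested genes. Pcx, pyruvate carboxylase, lay below log2 5 on all arrays.

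The tested samples were DX5+ NKC from spleens of Runx3-/- mice (3 arrays), compared with the same population from wild type (WT) mice (3 arrays). All mice were of the ICR strain and 6 weeks old, and the cells of both groups were enriched by negative selection, sorted for DX5 and left without stimulation. The series describes 1 mouse per sample, whereas the sex label reads male and female for every sample. The labels name no Cre driver or other allele, and DX5 (CD49b) is also carried by basophils and some other blood cells.

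Glycolysis splits glucose to pyruvate in the cytosol, and the pentose phosphate pathway branches from its first product to supply NADPH and ribose 5-phosphate. Pyruvate is either reduced to lactate or carried into mitochondria, where the pyruvate dehydrogenase complex turns it into acetyl-CoA, the fuel of the TCA cycle. Resting NKC are known to meet most of their energy demand by mitochondrial respiration and to raise glycolysis after cytokine activation.

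Runx3 itself had 7.76, 8.51 and 8.68 on the Runx3-/- arrays, against 10.11, 11.56 and 10.73 on the WT arrays, and was 5.59-fold lower (limma adjusted p = 0.0566). Of 11 tested NKC marker genes 0 were higher and 1 was lower at the thresholds used below, 2 lay wholly below WT on the Runx3-/- arrays, and none was below log2 5 on all arrays. Their summed log2 signal was 17.40, 17.56 and 17.38 in Runx3-/- and 17.64, 17.37 and 17.51 in WT. Beside the marker counts of this paragraph, 4.89% of all 9545 tested genes were higher, 8.86% were lower and 16.8% lay wholly below WT. None of 10 tested basophil and mast cell marker genes was lower and 8 were higher in Runx3-/-, and their summed log2 signal was 15.36, 14.50 and 14.54 in Runx3-/- against 12.97, 12.89 and 13.14 in WT. Of 13 tested genes of dividing cells, 8 were higher, with summed signals of 15.001, 15.05 and 15.39 in Runx3-/- and 14.44, 14.65 and 14.62 in WT. None of the basophil and mast cell genes lay below log2 5 on all arrays, whereas Tyms of the dividing cell list did. Monocyte and macrophage genes summed to 13.70, 11.92 and 9.33 in Runx3-/- against 11.49, 11.32 and 11.07 in WT, with 3 of 11 higher and Marco below log2 5 on all arrays. B cell genes summed to 11.76, 10.78 and 10.42 in Runx3-/- against 10.64, 9.11 and 9.11 in WT, with 4 of 10 higher and Pax5 below log2 5. In these bulk samples, fewer cells of a type and less RNA per cell cannot be told apart, and the part of these other cells in the results below was not tested.

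Most of the 38 tested enzyme genes showed small differences between Runx3-/- and WT NKC. Hk2, 1 of the hexokinases that start glycolysis, was 2.56-fold higher in Runx3-/-. Suclg1, a subunit of succinyl-CoA ligase in the TCA cycle, was 1.51-fold lower. The dim lactate dehydrogenase gene Ldhb was 1.71-fold lower as measured, and 1.49-fold lower with values under log2 5 raised to 5. The groups overlapped for Ldhb. The other 35 genes met neither call. A gene was called at the thresholds of the study, an unadjusted limma p under 0.05 with at least a 1.5-fold change.

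By that rule 1 member was higher, where 4.89% of all 9545 tested genes were, and 2 were lower, where 8.86% were. These shares of the 38 members were no larger than those over all genes. No member passed a Benjamini-Hochberg adjusted p of 0.05 (BH 5%), which 0.608% of all genes passed, and 4 of the 38 members and 1531 of all genes had an unadjusted limma p under 0.05. The adjusted p of the members ranged from 0.170 to 0.988. The 3 Runx3-/- arrays lay wholly above the 3 WT arrays for 1 member, Hk2, against 5.98% of all tested genes. They lay wholly below the WT arrays for 4 members, namely Pfkl, Pdhb, Dlat and Suclg1, against 16.8% of all tested genes. For the other 33 members the groups overlapped. The median change, Runx3-/- minus WT on the log2 scale, was -0.10 over the 38 members (quartiles -0.24 and 0.04) and -0.13 over all tested genes (quartiles -0.39 and 0.16). The direction was negative for 25 members and positive for 13. With each array centred on its median over the tested genes, the median over all genes was -0.01, and the calls over all genes were 627 higher and 498 lower in place of 467 higher and 846 lower. Small negative differences of members are read against that shift.

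**Figure D1:**
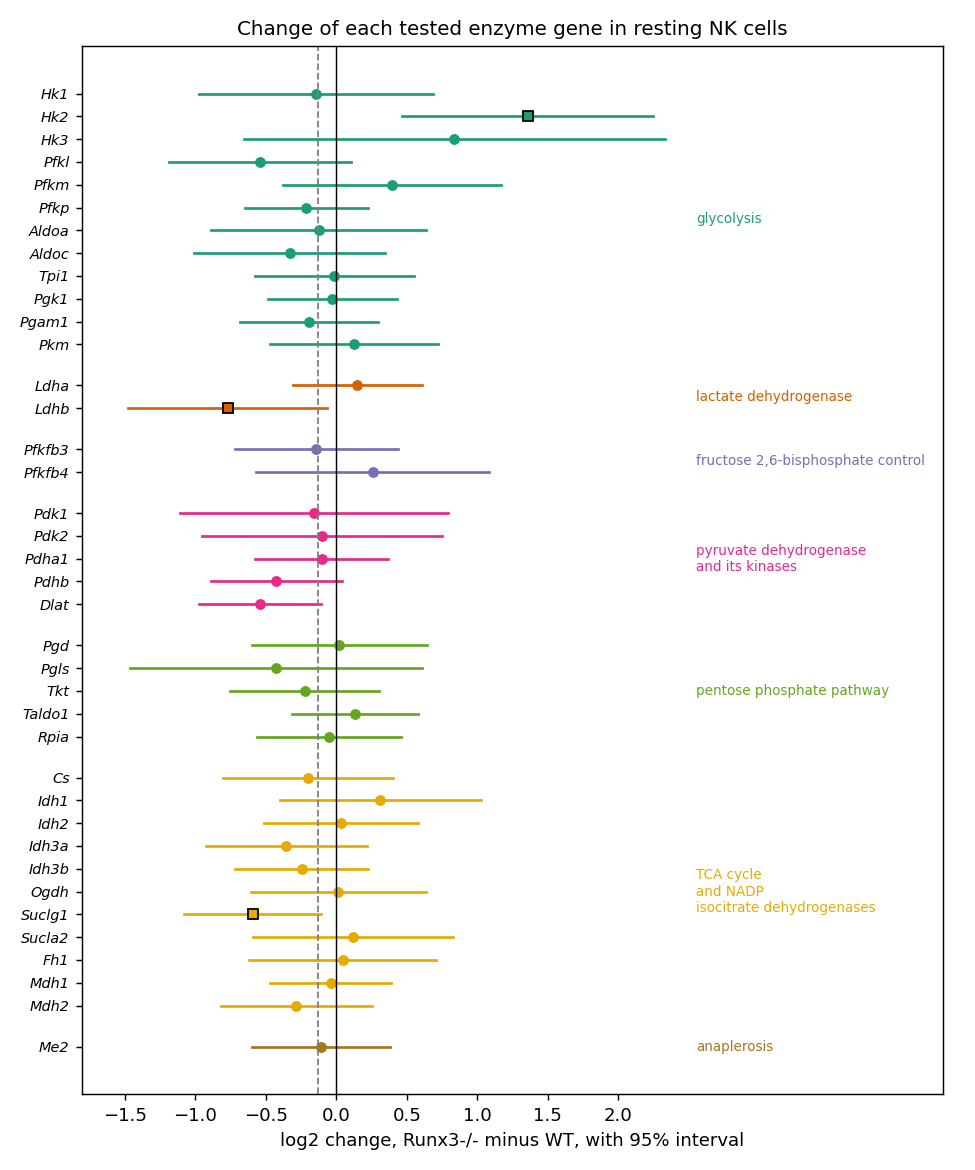
Change of each of the 38 tested enzyme genes in resting NKC, as log2 signal in Runx3-/- minus WT (horizontal axis) with the 95% limma interval as a bar, grouped by pathway. Squares with a black edge mark the 3 genes called at the study's thresholds, circles the other 35, and the dashed line marks the median over all tested genes (-0.13).

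The precision differed among members. The 95% interval of the change lay within 2-fold in either direction for 27 of the 38 genes and within 1.5-fold for 7, and the median standard error was 0.25 on the log2 scale. The change itself was under 0.2 in size for 21 genes. A mean log2 signal of 8 or more was reached by 32 of the 38, and Aldoc, Ldhb and Pdk2 lay close to log2 5, so that their being tested at all rested on few arrays or small margins.

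The first step of glycolysis, the phosphorylation of glucose, is carried out by hexokinases. Hk2 encodes an inducible hexokinase that can associate with mitochondria. Its signal was 10.45, 9.17 and 9.91 on the Runx3-/- arrays and 7.95, 8.59 and 8.91 on the WT arrays (probe set 1422612_at). Every Runx3-/- array lay above every WT array, with the gap smallest between Runx3-/- replicate 2 and WT replicate 3. The mean was 9.84 ± 0.64 in Runx3-/- and 8.48 ± 0.49 in WT (SD, n = 3 each), a log2 change of 1.36 with a 95% interval of 0.47 to 2.25 (limma adjusted p = 0.170). Over the alternative settings the change of Hk2 ran between 1.06 and 1.69 and the adjusted limma p between 0.0983 and 0.344, and the call at the study's thresholds was kept in all of them. Summed signals of basophil and mast cell genes and of dividing cell genes were higher on the same 3 arrays. The part of either in the Hk2 signal was not tested.

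The 250 bases before the start of Hk2 are shown because it was the member that rose, and because Hk2 is a well known target of the hypoxia-inducible factors. They lie at chr6:82774455-82774704 on the minus strand (RefSeq, GRCm38.p6). Capitals mark the hypoxia response core ACGTG or GCGTG, searched on both strands, of which ACGTG is also contained in the E-box CACGTG.
Hk2: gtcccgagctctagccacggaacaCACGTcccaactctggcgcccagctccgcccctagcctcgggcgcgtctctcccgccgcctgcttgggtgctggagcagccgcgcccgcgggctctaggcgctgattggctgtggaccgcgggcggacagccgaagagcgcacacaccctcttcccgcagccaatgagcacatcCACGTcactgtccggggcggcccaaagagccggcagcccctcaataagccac
There were 2 matches, beginning 226 and 52 bases before the start. Each RUNX sequence (TGTGGT or TGTGGC, and likewise TGCGGT or TGCGGC), searched on both strands, had 0 matches in this window. The hypoxia core was found in 38.6% of all 32851 windows of this length, in 56.7% of the 10036 windows of tested genes and in 75.8% of the 62 windows of the enzyme genes, 40 of which had a window. Among windows with at least 60% G or C, the shares were 87.1% of 31 enzyme windows and 67.7% of windows of tested genes. A RUNX match was found in 41.9% of the enzyme windows and 41.9% of windows of tested genes. These matches describe letters and not bound sites.

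The other hexokinases did not pass the test. Hk1, the widely expressed form, had 10.51, 11.71 and 11.73 in Runx3-/- and 11.61, 11.19 and 11.58 in WT, a difference of -0.14 (95% interval -0.97 to 0.69). Runx3-/- replicate 1 was the lowest array, and the other Runx3-/- arrays lay slightly above all WT arrays. Hk3, the hexokinase found mainly in myeloid cells, had 10.35, 7.89 and 7.84 in Runx3-/- and 7.96, 7.53 and 8.09 in WT, a difference of 0.84 (95% interval -0.65 to 2.33). A single array, Runx3-/- replicate 1, was high, and the difference was 0.01 without it. The 2nd probe set of Hk3 had the same shape, with 9.22, 7.49 and 7.76 in Runx3-/- and 7.51, 7.36 and 7.63 in WT. That array also had the highest summed signals of monocyte and macrophage (13.70), B cell (11.76) and basophil and mast cell genes (15.36). Neutrophil genes summed to 12.12 there and to 12.06 on WT replicate 2. The part of these cells in the Hk3 signal was not tested. Between isoenzymes, the change of Hk2 exceeded that of Hk1 by 1.501 on the log2 scale. The per-array differences did not overlap, but those of Runx3-/- replicate 2 and WT replicate 2 were close. An exact two-sided permutation test over the 20 assignments gave p = 0.1, the smallest this design allows. After adjustment over the 12 isoenzyme pairs compared, that p was 0.4. Without Runx3-/- replicate 1, where Hk1 was lowest, the changes lay closer together, at 1.055 for Hk2 and 0.26 for Hk1. The change of Hk2 exceeded that of Hk3 by 0.52 (exact permutation p = 0.4).

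Phosphofructokinase commits glucose carbon to glycolysis and has a liver, a muscle and a platelet form. Pfkl, the liver form, had 9.94, 9.56 and 9.996 in Runx3-/- and 10.09, 10.15 and 10.88 in WT. The groups did not overlap, but the highest Runx3-/- array and the lowest WT array were close, and with arrays centred on their medians or quantile normalized the groups overlapped. The difference was -0.54 (95% interval -1.18 to 0.10, limma adjusted p = 0.378). Pfkm, the muscle form, had 6.88, 7.62 and 6.91 in Runx3-/- and 6.21, 6.78 and 7.24 in WT, a difference of 0.40 (95% interval -0.37 to 1.17). The change of Pfkm exceeded that of Pfkl by 0.94, with no overlap of the per-array differences (exact permutation p = 0.1, the smallest possible, and 0.4 after adjustment over the 12 pairs).

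Pfkp, the platelet form, was read differently by its probe sets. The brightest had 12.68, 12.54 and 12.54 in Runx3-/- and 12.85, 12.89 and 12.66 in WT, a difference of -0.21 (95% interval -0.65 to 0.22). Another, probe set 1437759_at, had 8.12, 8.83 and 7.77 in Runx3-/- and 7.89, 7.14 and 6.12 in WT, a difference of 1.19. The first set was lower in mean and the second higher in mean in Runx3-/-, with overlapping groups on both, so that the array gave no single direction for Pfkp.

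The remaining glycolytic genes differed little. Aldoa, the main aldolase of most tissues, had 13.44, 12.21 and 12.61 in Runx3-/- and 12.68, 12.92 and 13.03 in WT, a difference of -0.12 (95% interval -0.89 to 0.64). Runx3-/- replicate 1 was the highest array and Runx3-/- replicate 2 the lowest, so that the Runx3-/- group enclosed the WT group. Aldoc, the brain-type aldolase, was close to log2 5 on every array, with 5.10, 4.29 and 5.25 in Runx3-/- and 5.42, 5.08 and 5.13 in WT. Tpi1 (triose phosphate isomerase), Pgk1 (phosphoglycerate kinase), Pgam1 (phosphoglycerate mutase) and Pkm (pyruvate kinase) had differences of -0.01, -0.03, -0.19 and 0.12. Their 95% intervals together ran between -0.68 and 0.72. Over the 12 tested glycolysis genes the median difference was -0.08.

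Lactate dehydrogenase interconverts pyruvate and lactate as tetramers of A and B chains. Ldha had 13.10, 13.14 and 13.38 in Runx3-/- and 12.97, 12.99 and 13.20 in WT, a difference of 0.15 (95% interval -0.30 to 0.61). The groups overlapped, and the highest array of each group was replicate 3. Ldhb, on probe set 1455235_x_at, had 5.49, 4.499 and 4.91 in Runx3-/- and 5.38, 5.88 and 5.95 in WT. Here 1 Runx3-/- array lay above the lowest WT array, and the other Runx3-/- arrays lay below log2 5, where values mostly follow the background model. The measured difference was -0.77 (95% interval -1.47 to -0.07, limma adjusted p = 0.280), and with values under 5 raised to 5 it was -0.57 and no longer reached 1.5-fold. Its other probe set at this level had a difference of -0.18, and the call was lost under 10 of 16 alternative settings, among them the fits without Runx3-/- replicate 2 (-0.54) or 3 (-0.74) and without WT replicate 2 (-0.70) or 3 (-0.66). The pair of Ldhb and Ldha, among the 12 isoenzyme pairs, is not read here, since 2 of the 3 Runx3-/- values of Ldhb lay below log2 5.

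**Figure D2:**
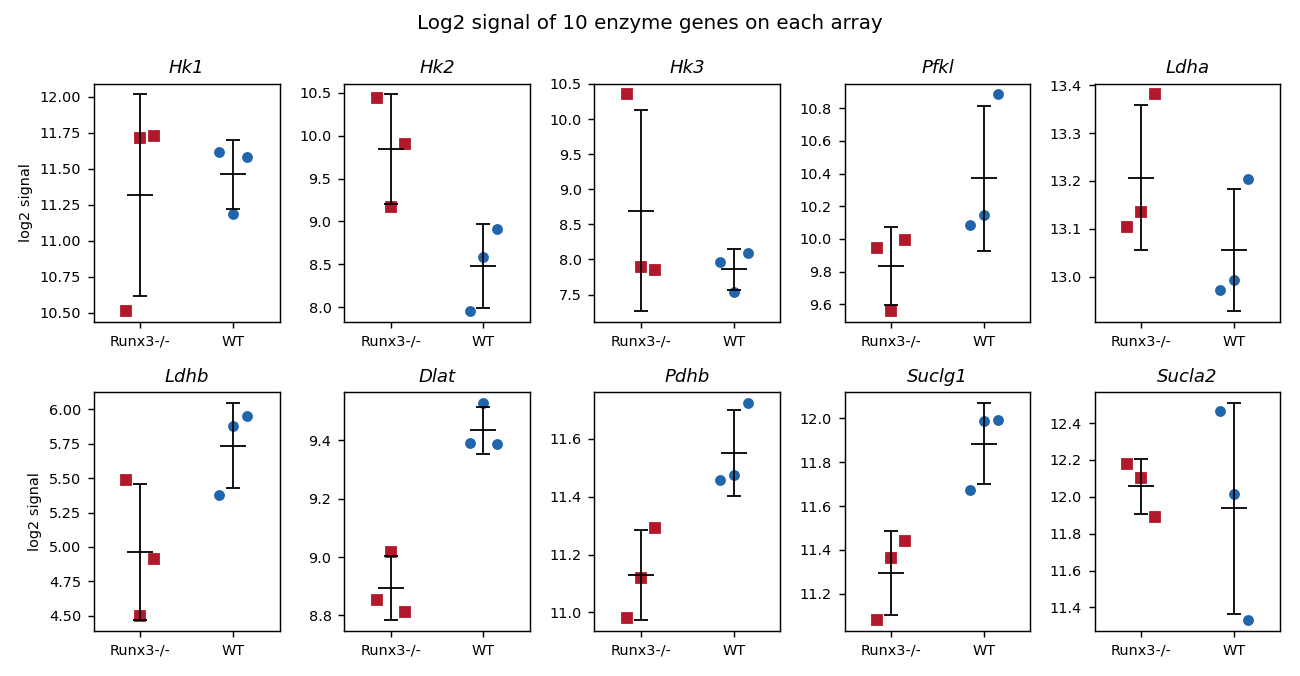
Log2 signal of 10 enzyme genes on each of the 6 arrays, with Runx3-/- as squares at the left and WT as circles at the right of each panel, and the group mean and SD (n = 3 each) as black bars; each panel has its own vertical axis, which does not start at 0. The 3 Runx3-/- arrays lie above all WT arrays for Hk2 and below all of them for Pfkl, Dlat, Pdhb and Suclg1, while 1 Runx3-/- array stands apart for Hk1 and Hk3.

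Fructose 2,6-bisphosphate, the strongest activator of phosphofructokinase, is made and removed by bifunctional enzymes. Pfkfb3, whose product favours synthesis, had 8.79, 8.28 and 8.76 in Runx3-/- and 8.66, 8.51 and 9.09 in WT. The difference was -0.14 (95% interval -0.72 to 0.44), and the groups overlapped, although WT replicate 3 was the highest array and Runx3-/- replicate 2 the lowest. Pfkfb4 had 6.71, 5.84 and 5.31 in Runx3-/- and 5.60, 5.57 and 5.91 in WT, a difference of 0.26, which was -0.12 without Runx3-/- replicate 1.

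The pyruvate dehydrogenase complex links glycolysis to the TCA cycle. Its catalytic parts include E1, made of alpha (Pdha1) and beta (Pdhb) chains, and the acetyltransferase E2 (Dlat). The kinases Pdk1 and Pdk2 switch the complex off by phosphorylating E1. All 5 members had negative differences, with a median of -0.16 beside -0.13 over all tested genes, and none met either call. Dlat had 8.85, 9.02 and 8.81 in Runx3-/- and 9.39, 9.53 and 9.39 in WT. The groups were well apart, with a narrow spread in each. The difference was -0.54 (95% interval -0.97 to -0.11, limma adjusted p = 0.229), 1.46-fold and so just short of the threshold. On its other 2 probe sets the groups were also separate, with differences of -0.70 and -0.44. With arrays centred on their medians the Dlat groups still did not overlap, at a difference of -0.42. Without Runx3-/- replicate 2 the difference was -0.60 and Dlat met the study's thresholds.

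Pdhb had 10.98, 11.12 and 11.29 in Runx3-/- and 11.46, 11.48 and 11.72 in WT. Each Runx3-/- array lay below each WT array, by a small margin. With median centring the groups overlapped (difference -0.30), and with quantile normalization they did not (difference -0.34). The difference was -0.42 (95% interval -0.89 to 0.04, limma adjusted p = 0.343). Pdha1 had 10.55 on each of the 3 Runx3-/- arrays and 10.89, 10.63 and 10.43 in WT on its brightest probe set, a difference of -0.10. On its dimmer probe set 1449137_at it had 8.59, 8.68 and 9.04 in Runx3-/- and 9.59, 9.38 and 9.34 in WT, with no overlap and a difference of -0.66. The brighter set showed overlapping groups and the dimmer one separate groups. The kinase genes did not separate the groups. Pdk1 had 7.18, 6.99 and 8.13 in Runx3-/- and 7.04, 7.47 and 8.27 in WT, a difference of -0.16. Pdk2 was near the background on all arrays, with 5.30, 3.94 and 4.73 in Runx3-/- and 4.47, 5.12 and 4.68 in WT.

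The windows of 250 bases before the starts of Dlat (chr9:50659781-50660030, minus strand) and Pdhb (chr14:8172993-8173242, minus strand) are shown as those of the complex members whose arrays did not overlap, with the same capitals as for Hk2 (RefSeq, GRCm38.p6).
Dlat: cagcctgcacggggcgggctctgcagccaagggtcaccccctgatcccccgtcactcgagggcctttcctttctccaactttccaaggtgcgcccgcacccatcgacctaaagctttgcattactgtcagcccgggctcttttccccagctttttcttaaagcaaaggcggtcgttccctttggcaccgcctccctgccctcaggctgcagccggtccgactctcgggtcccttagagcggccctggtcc
Pdhb: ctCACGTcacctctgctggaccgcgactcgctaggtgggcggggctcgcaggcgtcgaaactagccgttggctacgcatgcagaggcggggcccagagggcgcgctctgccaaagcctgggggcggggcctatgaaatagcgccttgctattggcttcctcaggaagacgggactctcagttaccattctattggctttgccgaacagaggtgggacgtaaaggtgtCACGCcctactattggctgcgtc
The hypoxia core had 0 matches in the Dlat window and 2 in the Pdhb window, beginning 248 and 23 bases before the start, and the RUNX sequences had 0 matches in either.

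In the pentose phosphate pathway no member met either call. Tkt, transketolase of the non-oxidative branch, had 14.20, 13.63 and 13.81 in Runx3-/- and 14.05, 14.29 and 13.97 in WT, a difference of -0.22 (95% interval -0.75 to 0.31). Replicate 1 of Runx3-/- lay among the WT arrays and the other Runx3-/- arrays below them. Taldo1 (transaldolase), Pgd (6-phosphogluconate dehydrogenase, the 2nd NADPH-producing step) and Rpia (ribose 5-phosphate isomerase) had differences of 0.13, 0.02 and -0.05. Pgls, the lactonase of the oxidative branch, varied most, with 10.24, 8.56 and 8.96 in Runx3-/- and 9.21, 9.95 and 9.88 in WT. Its Runx3-/- arrays included both the highest and the lowest 2 values, and the difference of -0.43 had a 95% interval of -1.46 to 0.61. Without Runx3-/- replicate 1, Pgls met the study's thresholds as lower. The median over the 5 tested members was -0.05.

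In the TCA cycle, succinyl-CoA ligase makes GTP or ATP from succinyl-CoA and pairs a shared alpha chain (Suclg1) with an ATP-specific (Sucla2) or a GTP-specific (Suclg2) beta chain. Suclg1 had 11.08, 11.36 and 11.44 in Runx3-/- and 11.67, 11.99 and 11.99 in WT (probe set 1415891_at). All Runx3-/- arrays lay below all WT arrays, also with median centring and with quantile normalization. The difference was -0.59 (95% interval -1.08 to -0.10, limma adjusted p = 0.237, and 0.117 to 0.507 over the alternatives). At 1.51-fold the gene lay at the edge of the threshold, and the call was lost with median centring (-0.47), quantile normalization (-0.49), and without Runx3-/- replicate 1 (-0.48), WT replicate 2 (-0.54) or WT replicate 3 (-0.54). Sucla2 had 12.18, 12.10 and 11.89 in Runx3-/- and 12.47, 12.01 and 11.33 in WT, a difference of 0.12 (95% interval -0.59 to 0.83) with the WT arrays spread around the Runx3-/- arrays. The change of Suclg1 minus that of Sucla2 was -0.71 (exact permutation p = 0.3). Suclg2, which was not among the 42 genes, had 10.14, 10.59 and 10.56 in Runx3-/- and 10.65, 11.29 and 11.10 in WT on its brightest probe set. Its difference was -0.59 (limma adjusted p = 0.309), and on its other probe set the groups were also separate, at 7.53, 8.09 and 8.38 in Runx3-/- and 8.80, 8.9998 and 9.27 in WT. The call of Suclg2 was lost under 8 of 18 alternatives, median centring (-0.46) and the fits without Runx3-/- replicate 1 (-0.44), 2 (-0.67) or 3 (-0.65) and without WT replicate 2 (-0.45) or 3 (-0.54) among them. The window before the start of Suclg1 (chr6:73248255-73248504, plus strand, RefSeq, GRCm38.p6) is shown as that of the TCA cycle member called lower, with the same capitals.
Suclg1: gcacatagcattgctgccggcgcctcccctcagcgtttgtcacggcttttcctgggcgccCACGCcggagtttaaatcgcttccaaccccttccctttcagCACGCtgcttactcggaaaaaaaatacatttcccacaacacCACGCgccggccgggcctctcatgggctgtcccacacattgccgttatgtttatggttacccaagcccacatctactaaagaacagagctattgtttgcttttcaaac
The hypoxia core had 3 matches, beginning 190, 149 and 108 bases before the start, and the RUNX sequences had 0.

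The other 9 genes of this group met neither call on their brightest probe set. Mdh2, mitochondrial malate dehydrogenase, had 14.25, 13.80 and 13.57 in Runx3-/- and 14.08, 14.19 and 14.20 in WT, a difference of -0.28 (95% interval -0.82 to 0.25). Replicate 1 of Runx3-/- was the highest array of all and the other 2 Runx3-/- arrays were the lowest. Mdh1, the cytosolic form, Cs (citrate synthase), Fh1 (fumarase) and Ogdh (oxoglutarate dehydrogenase) had differences of -0.04, -0.20, 0.05 and 0.01. The dimmer probe set of Ogdh gave 6.54, 6.996 and 6.53 in Runx3-/- and 7.36, 7.26 and 7.16 in WT, separate groups with a difference of -0.57.

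Isocitrate is oxidised by the NAD-linked Idh3 enzyme of the cycle and by the NADP-linked Idh1 (cytosolic) and Idh2 (mitochondrial). Idh3a, the catalytic subunit, had 10.17, 10.66 and 10.49 in Runx3-/- and 10.98, 10.97 and 10.43 in WT, a difference of -0.35 (95% interval -0.92 to 0.22). WT replicate 3 lay among the Runx3-/- arrays. On its dimmer probe set 1422501_s_at Idh3a had 6.10, 6.10 and 6.09 in Runx3-/- and 6.61, 7.21 and 6.67 in WT, with no overlap and a difference of -0.73. Idh3b had 11.99, 11.74 and 11.87 in Runx3-/- and 12.29, 12.13 and 11.90 in WT. Its groups overlapped through 1 array of each. Idh1 had 9.45, 9.22 and 8.35 in Runx3-/- and 8.80, 8.71 and 8.57 in WT, a difference of 0.31 (95% interval -0.40 to 1.02). Runx3-/- replicate 3 was the lowest array, and without it the difference was 0.64 and met the study's thresholds. Idh2 had 9.28, 9.17 and 9.34 in Runx3-/- and 9.27, 8.86 and 9.56 in WT, a difference of 0.03. The median over the 11 genes was -0.04.

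Of the genes listed under anaplerosis, Me2, the mitochondrial malic enzyme, had 9.92, 10.24 and 9.84 in Runx3-/- and 10.19, 10.21 and 9.91 in WT. The difference was -0.11, with overlapping groups. On its probe set 1439526_at the values were 7.79, 7.86 and 7.94 in Runx3-/- and 8.19, 8.94 and 9.27 in WT, separate groups with a difference of -0.94. The probe sets of Me2 thus differed by over 1.5-fold in their change.

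Probe sets of 1 gene differed in direction for other members too, but rarely by over 1.5-fold. Of the 20 members with at least 2 probe sets at log2 5 or more on all arrays, 9 had sets of opposite direction. In 2 of these, Pfkp and Me2, the changes differed by over 1.5-fold. Some of the opposite directions were of small changes, as for Pgd with -0.03 to 0.05. When each of 16521 probe sets was fitted on its own, 2 sets of members were higher, those of Hk2 and the dimmer set of Pfkp, where 5.19% of all sets were. Lower sets numbered 6, where 7.66% of all sets were lower, and belonged to Dlat, Idh3a, Ldhb, Me2, Pdha1 and Suclg1. No set of a member passed BH 5%, which 0.0847% of all sets passed. Of the 75 member sets fitted, 1 had all Runx3-/- arrays above all WT arrays, beside 6.38% of all sets, and 10 had them all below, beside 15% of all sets. These 10 sets were the 3 of Dlat and 1 each of Idh3a, Me2, Ogdh, Pdha1, Pdhb, Pfkl and Suclg1. For Dlat, Idh3a, Me2 and Pdha1 the lower set was a dimmer one than the set that represents the gene.

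**Figure D3:**
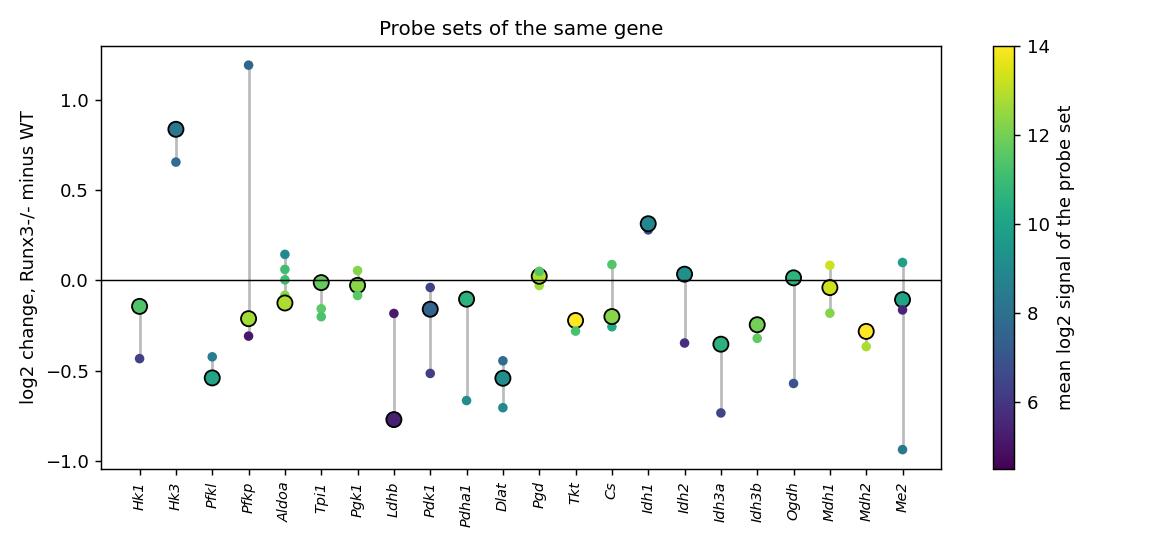
Log2 change, Runx3-/- minus WT (vertical axis), of every probe set of the enzyme genes with more than 1 set that reached log2 5 on at least 1 array. Colour gives the mean log2 signal over the 6 arrays and the ringed point is the set that represents the gene; the sets of Pfkp and Me2 lie farthest apart.

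Across the arrays the enzyme genes did not move as a block. The median deviation of the 38 genes from their own means was 0.00, -0.18 and -0.05 on the Runx3-/- arrays and 0.00, 0.07 and 0.08 on the WT arrays. Runx3-/- replicate 2 was the lowest array for 13 genes and the highest for 2, while Runx3-/- replicate 1 was the highest for 10 genes and the lowest for 6. The spread between the 3 Runx3-/- arrays was thus no narrower than the distance between the groups. Over all tested genes the corresponding medians were 0.00, -0.08 and -0.10 in Runx3-/- and 0.02, 0.06 and 0.14 in WT.

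Further enzymes of the same pathways were read in 4 lists of 57 genes, of which 49 had a probe set and 34 were tested. Among them 1 was called higher and 1 lower, beside the 4.89% and 8.86% over all genes, and their median change was -0.22. The lower one was Suclg2. The higher one was Fbp1, fructose 1,6-bisphosphatase of gluconeogenesis, which had 6.88, 6.40 and 6.54 in Runx3-/- and 5.06, 5.56 and 5.58 in WT. All Runx3-/- arrays lay above all WT arrays, and the change was 2.30-fold (limma adjusted p = 0.0899).

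Of 19 tested regulators of carbon metabolism, 2 were higher (Epas1 and Max) and 1 lower (Rptor), beside 4.89% and 8.86% of all tested genes, and 1 passed BH 5%, beside 0.608% of all tested genes. The median change of the 19 was -0.09. Epas1 encodes the hypoxia-inducible factor subunit HIF-2alpha, and had 10.72, 10.94 and 10.64 in Runx3-/- and 8.51, 9.35 and 8.86 in WT. The groups were far apart, at 3.63-fold, and Epas1 passed BH 5%, as no other gene of these lists did (limma adjusted p = 0.0373, with 0.0187 to 0.175 over the alternatives). Without any single array other than WT replicate 1, it no longer passed. On all 6 arrays it also missed BH 5% with every probe set fitted and with the mean of all probe sets. The same held with no filter on level and with the replicate block. Max, the dimerisation partner of Myc, had 7.74, 7.92 and 7.04 in Runx3-/- and 6.44, 6.82 and 6.96 in WT, separate by a narrow margin (limma adjusted p = 0.229). Its log2 change of 0.83 was 0.74, 0.66 and 0.68 without Runx3-/- replicate 1, Runx3-/- replicate 2 and WT replicate 1, and in these fits the call was lost. Rptor, the defining subunit of the growth kinase complex mTORC1, had 9.02, 9.08 and 9.19 in Runx3-/- and 10.01, 10.35 and 10.28 in WT, 2.17-fold lower with no overlap (limma adjusted p = 0.0636). Averaged with its dim probe sets, the log2 change of Epas1 was 0.98, and that of Rptor was -0.29 and no longer met the thresholds.

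Of 9 tested hypoxia-inducible genes outside the enzymes, 0 were higher and 2 lower, beside 4.89% and 8.86% of all tested genes. Bnip3, a mitophagy receptor, had 7.72, 7.56 and 8.08 in Runx3-/- and 8.43, 8.90 and 8.62 in WT (limma adjusted p = 0.158). P4ha1, a collagen prolyl hydroxylase subunit, had 7.60, 8.17 and 7.64 in Runx3-/- and 8.89, 8.89 and 8.98 in WT, 2.17-fold lower (limma adjusted p = 0.0902). For both genes all Runx3-/- arrays lay below all WT arrays. The median over the 9 genes was -0.13, equal to that over all tested genes to the second decimal.

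**Figure D4:**
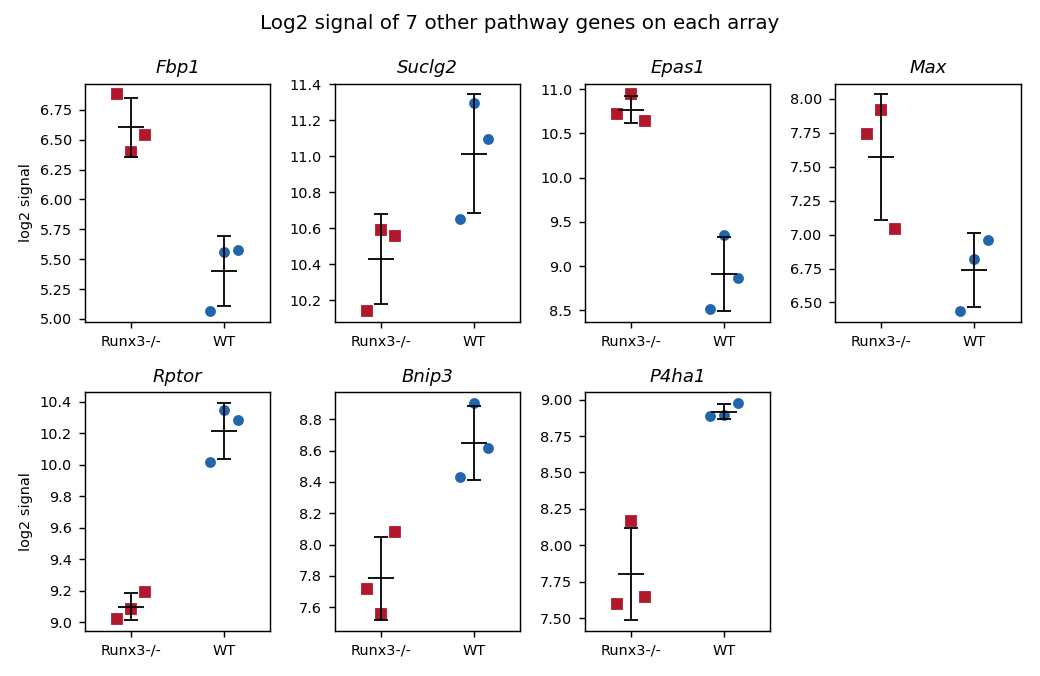
Log2 signal on each of the 6 arrays of the 7 genes outside the 42 that were called at the study's thresholds, with Runx3-/- as squares at the left and WT as circles at the right of each panel, and the group mean and SD (n = 3 each) as black bars; each panel has its own vertical axis, which does not start at 0. The groups are separate in all 7 panels, widely for Epas1 and narrowly for Max and Suclg2.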

How the data were processed

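RNA of sorted splenic NKC was labelled and hybridised to Affymetrix mouse expression arrays, 1 per sample. The labels and methods name different labelling kits. The authors processed the scans with GC-RMA in Partek (named in the submitters' processing notes, no version) and deposited log2 values for 45101 probe sets. GC-RMA normalizes arrays toward a common distribution, so a change in total RNA per cell cannot be seen, and dim values follow its background model. In the deposited values the array medians over the tested genes still ran from 8.845 (Runx3-/- replicate 3) to 9.037 (WT replicate 3). No source gives the background level that the study required, and log2 5 stood in for it.

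Gene names came from the platform annotation (34945 with 1 symbol, 932 with several, which were left out, 9160 with none listed). Each gene took its probe set of highest mean. All 6 arrays were fitted by limma 3.58.1 (lmFit, eBayes) in R 4.3.3 without covariates, with Benjamini-Hochberg adjustment over 9545 genes. The fit was tested on simulated data. Isoenzyme changes were compared by exact two-sided permutation of the 6 arrays. Precision is limited by having 3 arrays a group, and no source names separate litters.

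Values per array are given for members called on any probe set, those with separate groups, the brightest in each pathway and the isoenzyme families, and for other pathway genes that were called. Array values of Pgls, Sucla2 and the dimmer Ogdh set were added after they had been seen. Members and lists were chosen with earlier results of these data known. Alternatives covered the filter, floor, normalization, representing probe set, moderation, array weights, a replicate block and leaving out each array.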

Additional observations from a re-analysis of the deposited data

How the results depend on the processing

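No member passed BH 5% under any of the 18 alternatives run, and Hk2 was higher at the study's thresholds under all of them. The count of higher members was 2 with every probe set fitted on its own and 1 to 2 when 1 array was left out, where Idh1 joined Hk2 without Runx3-/- replicate 3. The count of lower members was 2, and it was 6 with every probe set, 0 with median centring, and 1 with eBayes trend, with trend and robust options, with the filter at log2 6, with the floor at log2 5, with the mean of all probe sets, with quantile normalization and without the _x_at and _s_at probe sets. It was 0 to 2 when 1 array was left out, and 0 without WT replicate 2 or WT replicate 3. The median change over the members ran between -0.15 and 0.02.

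The deviations of same-numbered arrays from their group means correlated at 0.065, -0.186 and 0.154. Those of differently numbered arrays correlated between -0.273 and 0.218. With 3 arrays a group, these values cannot decide whether samples sharing a replicate number in their titles were paired. With the replicate block 1 member was lower and 1 higher, and over all genes 0 passed BH 5%, in place of 58.

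Directions of small changes were not stable. Pdk2 was 0.060 with the floor and 0.0235 with median centring, which also turned Me2 to 0.015 and Pdha1 to 0.018. Hk1 was 0.17 with array weights. With the mean of all probe sets Aldoa was 0.0003, Pfkp 0.22 and Idh2 -0.16. Leaving out 1 array at a time, the change ran between -0.35 and 0.26 for Hk1, -0.47 and 0.15 for Aldoa, -0.15 and 0.20 for Idh2, -0.21 and 0.016 for Pdha1, -0.51 and 0.18 for Pdk1, -0.42 and 0.26 for Pdk2, -0.26 and 0.026 for Pfkfb3, and -0.12 and 0.58 for Pfkfb4. The cause of these shifts was not tested. Low signal limits Aldoc, Ldhb and Pdk2, which lay near log2 5, and with 3 arrays a group most intervals are wider than 1.5-fold.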
